A study of Mus musculus with 12 samples.

Results

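The genes described here encode the voltage-gated sodium channels, the voltage-gated calcium channels and the pacemaker channels of the heart. They were taken from the table of counts by symbol: the Scn alpha and beta subunits, the Cacna, Cacnb and Cacng subunits of calcium channels (alpha1, alpha2delta, beta and gamma), and the Hcn genes of the pacemaker channels, each with at least 1 count in 6 or more of the 12 libraries. Of 41 genes with such symbols, 34 met the count rule, out of 17397 genes in the table. They comprised 7 sodium alpha, 4 sodium beta, 9 calcium alpha1, 3 calcium alpha2delta, 4 calcium beta, 3 calcium gamma and 4 HCN genes. Across all groups, 25 of the 34 were abundant enough to be tested.

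Sodium channels carry the fast inward current that starts the action potential of the working heart muscle. The L-type calcium channel, formed by Cacna1c with a beta and an alpha2delta subunit, admits the calcium that triggers contraction. HCN channels open on hyperpolarization and are modulated by cyclic AMP. Together with T-type calcium channels they are best known from the pacemaker and conduction tissue.

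Hearts came from male wild-type C57BL/6J mice aged 8 weeks at the start, in 4 groups of 3 libraries. The control group was labelled saline and did not exercise. The trained group ran on a treadmill on 5 days a week for 4 weeks, with a first week of steps from 6 to 15 m/min and, in later sessions, 35 min at 12 m/min after a warm-up of 5 min at 6 m/min. The tumour group did not exercise and received 100000 B16F10 cells, a mouse melanoma line, into the tail vein from week 2, as a model of cancer cachexia. The tumour trained group received the same cells and ran. No label tells whether saline was given to the trained mice. No label ties a library to a mouse of its own. The p-values therefore measure the spread between these libraries alone, which may be technical.

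Total counts ranged from 8843909 to 13344847 per library. The extraction protocol names livers, whereas the tissue label says heart: 3 liver genes held at most 0.000527% of the counts in any library, and 16 cardiomyocyte genes held 12.6% to 14.1% in 10 libraries. In 2 libraries of the tumour group the cardiomyocyte share was lower, 3.26% in tumour 1 and 7.94% in tumour 2, against 12.6% in tumour 3. A list of 6 melanocyte genes held 1.12% of counts in tumour 1, 0.513% in tumour 2 and 0.00169% in tumour 3, and at most 0.00104% in the other 9 libraries. Markers of neurons and Schwann cells were also highest in tumour 1 (0.011%) and tumour 2 (0.00473%), with at most 0.00341% elsewhere, and cell cycle genes held 0.0889% and 0.0266%, with at most 0.000871% elsewhere. Trained 2 also stood apart from trained 1 and 3, at a chi-square of 29.0 and 31.2 per gene against 4.20 between those 2. For comparisons that involve the tumour group, the calls and the differences of some genes are therefore also given without tumour 1 and 2. In bulk heart RNA, fewer cells of a type and less RNA per cell cannot be told apart.

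CPM is used for levels and was scaled to effective library size by the TMM method of edgeR. A gene was called when the adjusted p of edgeR's quasi-likelihood test, corrected by Benjamini-Hochberg over the 12778 genes tested, was below 0.05. Between tumour and control, 6.79% of all tested genes were called, and 2 of the 25 channel genes, among them Scn3b, lower. Between tumour trained and tumour, 9.05% were called, and 3 channel genes, among them Cacna2d1 and Scn3b, both higher. Between trained and control, 0% of tested genes were called, with 0 channel genes at p under 0.05 before adjustment. Between tumour trained and trained, 0% were likewise called by edgeR, again with 0 channel genes at p under 0.05 before adjustment. DESeq2 also called 0 channel genes in these comparisons. The interaction of tumour and training called 0.0235% of genes and 0 channel genes in edgeR. Before adjustment 2 channel genes had p under 0.05 in edgeR, Scn3b among them, and DESeq2 called 1. The share of all genes under that p, or called by DESeq2, is not given here. The 2 comparisons that involve the tumour group share its libraries, so they are not independent of each other. The number of calls changed when 1 library was left out: without tumour 3, edgeR called 12 channel genes between tumour and control and 13 between tumour trained and tumour. Without any other library the first number was 0, and the second was 3 without trained 2 and 0 otherwise. The share of all genes called in these fits is not given here, so these counts show nothing particular to channel genes. Among called genes, leaving out 1 library gave Scn3b -2.26 to -2.02 between tumour and control, and Cacna2d1 0.94 to 1.36 between tumour trained and tumour. Other differences between tumour and control moved more: Cacna1c -0.80 to -0.0017, Scn4b -1.44 to -0.22 and Hcn2 -2.03 to -0.79. The median channel gene ranged from -0.79 to -0.22.

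Without tumour 1 and 2, 1.4% of genes were called between tumour 3 and control and 0.716% between tumour trained and tumour 3. In both, Cacnb2 was the 1 channel gene called, lower in tumour 3. That fit has 1 tumour library, which is assumed to vary like the other groups.

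Most channel genes were lower on average in tumour than in control, without passing the test. The median log2 difference between tumour and control was -0.51 over the 25 channel genes and 0.11 over all genes tested, and 4 of the 25 lay above 0. Scaled to the 16 cardiomyocyte genes, the same medians were 0.54 and 1.58, so the channel genes remained below the median of all genes but 19 of 25 then lay above 0. By library, the median channel gene stood at -1.72 in tumour 1, -0.26 in tumour 2 and -0.11 in tumour 3 relative to the control mean. The median of the cardiomyocyte genes stood at -2.37, -0.86 and -0.09 in the same libraries. The channel genes were thus ordered across the tumour libraries as the cardiomyocyte genes were, and the part of the cardiomyocyte share in the tumour result was not tested.

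**Figure D1:**
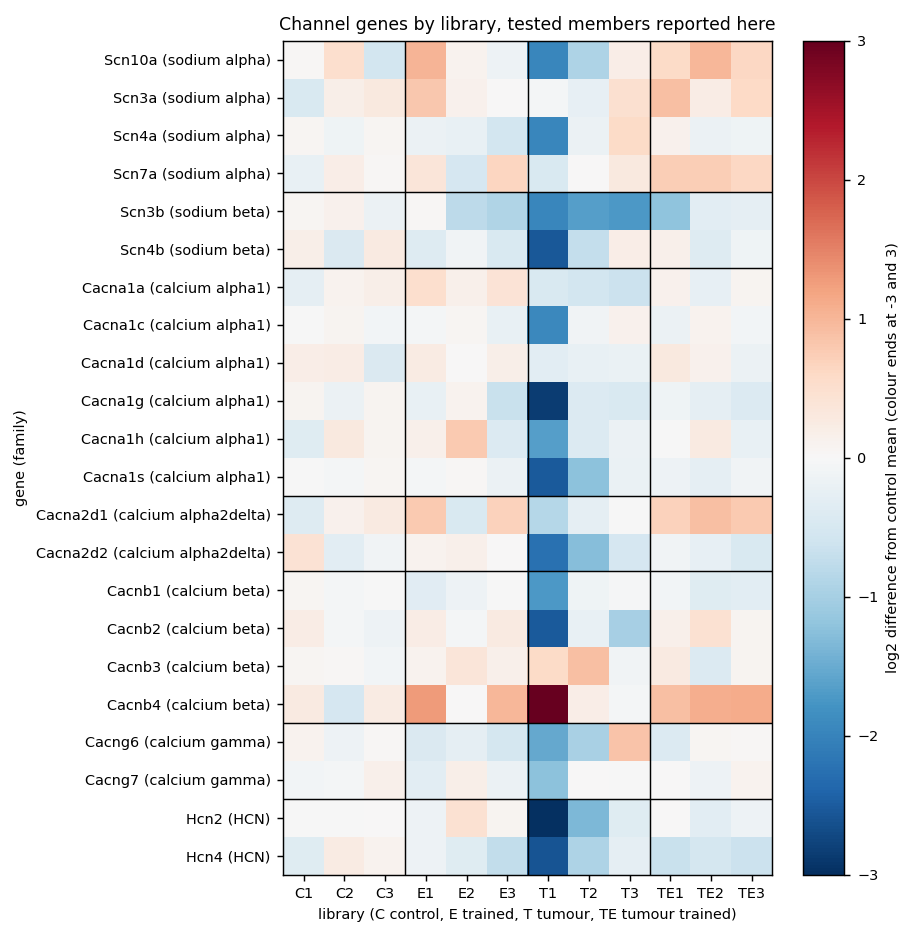
Log2 difference of the tested channel genes reported here (vertical, by family) from their control means in each of the 12 libraries (horizontal); colour runs from -3 to 3. Tumour 1 is lower for most genes, with a median of -1.72 over all 25 tested, whereas Cacnb4 is far above the control mean there.

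Several channel genes had no overlap between the libraries of 2 groups. All 3 tumour libraries lay below all 3 controls for 8 of 25 channel genes, against 11.8% of all genes, and among them were Cacna1a, Cacna1g, Cacna1s, Cacna2d2, Cacnb2, Hcn2 and Scn3b. They lay wholly above for 1, against 14.2%. Of the other tumour comparison, 9 of 25 lay wholly higher in tumour trained than in tumour, against 13.5%, and 1 wholly lower, against 14.5%. Taken singly, tumour 1 lay below every control for 20 of 25 channel genes (42% of all genes) and above for 3 (48.2%). Tumour 2 lay below for 16 (33.6%) and above for 3 (45.4%). Tumour 3 lay below for 10 (29%) and above for 6 (31.9%). Its melanocyte share of 0.00169% was far below that of tumour 1 and 2 but above that of every control. The 10 genes below the controls in tumour 3 included Cacna1a, Cacna1g, Cacna1s, Cacna2d2, Cacnb2, Cacnb3, Hcn2 and Scn3b. The 6 above included Cacna1c, Cacng6, Scn3a, Scn4a and Scn7a.

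Per kilobase of exon, Cacna1c stood at 16.7 ± 0.886 CPM per kb in control hearts (SD, n = 3), above Hcn2 at 13.8 ± 0.140. Scn4b, which encodes a sodium beta subunit, was at 11.8 ± 2.94, within its spread of Hcn2. Cacna2d1 stood at 8.78 ± 1.99, and Scn4a at 6.49 ± 0.520 was within the spread of Cacnb2 at 6.40 ± 0.882. At the other end, Scn8a and Cacna1e were at 0.00830 ± 0.00922 and 0.00406 ± 0.00417 CPM per kb, with SDs as large as their means.

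Scn7a encodes the sodium-sensing channel Nax, which is not gated as its relatives are. It was measured at 15.6, 21.025 and 18.6 CPM in the controls, 23.5, 12.7 and 28.5 in the trained, 13.2, 18.5 and 22.5 in the tumour, and 30.7, 30.6 and 28.0 in the tumour trained libraries. The tumour trained libraries lay above all tumour libraries and above all controls. Tumour trained was not tested against control, and the share of all genes so separated is not given here. The difference to tumour was 0.72 ± 0.28 on the log2 scale (edgeR adjusted p = 0.105), and that of tumour to control -0.03 ± 0.28 (edgeR adjusted p = 0.943), so neither was called.

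Scn4a, the sodium channel best known from skeletal muscle, stood at 47.9, 41.5 and 47.7 CPM in the controls and 11.6, 40.1 and 68.0 in tumour 1, 2 and 3. It was lower in all 3 trained libraries, at 40.03, 39.0 and 31.1, than in all controls, and higher in all 3 tumour trained libraries, at 50.3, 40.2 and 41.7, than in all trained ones. Neither difference passed the test, at -0.32 ± 0.44 (edgeR adjusted p = 1) and 0.26 ± 0.44 (edgeR adjusted p = 1.00). Across all genes, 5.44% lay wholly below in the trained libraries and 4.04% wholly above. Scn10a, known from sensory neurons, was at 2.49, 3.50 and 1.58 CPM in the controls, 0.479, 1.18 and 2.77 in the tumour, and 3.70, 4.96 and 3.79 in the tumour trained libraries. The tumour trained libraries lay wholly above the tumour libraries, by 1.53 ± 0.55 on the log2 scale (edgeR adjusted p = 0.0907), which did not pass.

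Scn8a encodes the sodium channel Nav1.6, abundant in the nervous system. It had 3, 0 and 1 counts in the controls, 835 in tumour 1, 351 in tumour 2 and 1 in tumour 3, and at most 2 in any trained or tumour trained library. Tumour 1 and 2 stood at 49.95 and 24.4 CPM and every other library at or below 0.287. The gene did not pass the filter on low counts, which asks for a minimum level in as many libraries as a group holds. With no filter it was called higher in tumour than in control (7.41 ± 1.503, edgeR adjusted p = 0.0312) and lower in tumour trained than in tumour (-7.70 ± 1.55, edgeR adjusted p = 0.0286). Those fitted values depend on the near-zero groups and are no measure of a fold. The 2 libraries that held the transcript are those with melanocyte genes above 0.5% of counts, and the part of those genes in the result was not tested.

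RefSeq lists 2 starts of Scn8a. The 250 bases before each are shown because the transcript was near 0 outside tumour 1 and 2. They lie in GRCm38.p6 at chr15:100870395-100870644 and chr15:100936021-100936270, plus strand, 5′ to 3′.
Scn8a, first start: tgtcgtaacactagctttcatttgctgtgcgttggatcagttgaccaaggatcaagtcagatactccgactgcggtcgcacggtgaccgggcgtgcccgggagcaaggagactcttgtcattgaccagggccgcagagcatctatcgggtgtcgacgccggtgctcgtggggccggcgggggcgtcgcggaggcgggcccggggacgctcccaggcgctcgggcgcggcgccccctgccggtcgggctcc
Scn8a, second start: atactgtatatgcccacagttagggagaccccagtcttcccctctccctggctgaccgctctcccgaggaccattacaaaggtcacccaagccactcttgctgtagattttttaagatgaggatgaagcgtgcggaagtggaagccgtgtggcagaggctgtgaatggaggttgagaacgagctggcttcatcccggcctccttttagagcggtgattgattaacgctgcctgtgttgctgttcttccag
Capitals would mark 3 motifs searched on both strands: the E-boxes CACGTG and CATGTG, bound by MITF and related factors, and the GC box GGGCGG. Neither window holds any of them. Of 32851 RefSeq promoter windows of this length, 6.02% hold CACGTG, 12.3% CATGTG and 32.7% GGGCGG. Among 34 windows of 24 channel genes, 0 hold CACGTG, 2 hold CATGTG (5.88%) and 15 hold GGGCGG (44.1%).

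The share of the sodium alpha family that came from Scn8a differed between the tumour libraries. In counts, which favour long transcripts, Scn8a took 28.5% (95% Wilson interval 26.9% to 30.1%) in tumour 1 and 3.97% (3.58% to 4.39%) in tumour 2, but 0.0196% (0.00346% to 0.111%) in tumour 3. In tumour 3 Scn4a took 14.4% of the family, against 7.36% to 9.37% in the controls. The intervals cover counting error only.

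Sodium beta subunits set the gating and membrane placement of the pore. Scn3b was low in every tumour library: 2.01, 2.14 and 1.68 CPM in the controls, 2.00, 1.04 and 0.958 in the trained, 0.359, 0.487 and 0.462 in the tumour, and 0.739, 1.51 and 1.58 in the tumour trained libraries. The tumour libraries held 6, 7 and 5 counts, and tumour trained 1 also held 7. In CPM the tumour libraries did not overlap with any other group. It fell by 2.14 ± 0.41 on the log2 scale against control (edgeR adjusted p = 0.0390) and was 1.54 ± 0.42 higher in tumour trained than in tumour (edgeR adjusted p = 0.0477). Tumour 3 was as low as tumour 2, in contrast to most other channel genes. Without tumour 1 and 2 the difference to control was of like size but not called (-2.04 ± 0.64, edgeR adjusted p = 0.181), as was that of tumour trained to tumour (1.43 ± 0.67, edgeR adjusted p = 0.354). With the cardiomyocyte scaling the difference to control was -0.94 ± 0.54 (edgeR adjusted p = 0.127).

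Scn4b was at 64.8, 42.2 and 69.7 CPM in the controls, 44.0, 53.9 and 41.8 in the trained, 9.75, 35.3 and 66.5 in the tumour, and 64.3, 44.0 and 52.5 in the tumour trained libraries. Tumour 3 lay within the control range. The log2 difference was -0.67 ± 0.49 for tumour against control (edgeR adjusted p = 0.320) and 0.53 ± 0.49 for tumour trained against tumour (edgeR adjusted p = 0.450). Neither passed the test.

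Of the L-type calcium pores, Cacna1c was the most abundant and was low in 1 library. It stood at 352, 372 and 334 CPM in the controls, 341, 369 and 303 in the trained, 92.2, 325 and 383 in the tumour, and 314, 382 and 333 in the tumour trained libraries. Tumour 3 was above every control. The tumour difference was -0.40 ± 0.38 (edgeR adjusted p = 0.439) and the tumour trained difference to tumour 0.36 ± 0.38 (edgeR adjusted p = 0.511). With counts scaled to the cardiomyocyte genes, Cacna1c was called higher in tumour than in control (0.54 ± 0.22, edgeR adjusted p = 0.0468), where the median of all genes was 1.58.

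Cacna1d encodes the L-type pore that is prominent in sinoatrial cells. It was at 2.39, 2.43 and 1.47 CPM in the controls, 2.47, 2.08 and 2.34 in the trained, 1.62, 1.74 and 1.75 in the tumour, and 2.53, 2.27 and 1.79 in the tumour trained libraries. The tumour libraries lay within the control range and below all tumour trained libraries. The log2 differences were -0.31 ± 0.28 against control (edgeR adjusted p = 0.427) and 0.37 ± 0.28 for tumour trained against tumour (edgeR adjusted p = 0.367). Cacna1s, the skeletal muscle L-type pore, was at 28.0, 27.2 and 29.4 CPM in the controls and 4.73, 11.9 and 24.6 in the tumour libraries, each of which lay below every control. Its difference was -1.05 ± 0.41 (edgeR adjusted p = 0.105).

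The T-type pores were lower in most tumour libraries without passing the test. Cacna1g was at 21.1, 17.7 and 21.2 CPM in the controls, 17.2, 21.4 and 12.6 in the trained, 2.63, 15.0 and 14.4 in the tumour, and 18.2, 16.4 and 14.8 in the tumour trained libraries. All tumour libraries lay below all controls, with a log2 difference of -0.92 ± 0.47 (edgeR adjusted p = 0.180), and the tumour trained difference to tumour was 0.63 ± 0.47 (edgeR adjusted p = 0.351). Cacna1h was at 9.19, 14.6 and 12.5 CPM in the controls, 13.2, 20.6 and 8.94 in the trained, 3.65, 8.84 and 10.5 in the tumour, and 11.8, 14.5 and 10.1 in the tumour trained libraries. The groups overlapped, and the differences were -0.67 ± 0.39 (edgeR adjusted p = 0.231) and 0.67 ± 0.39 (edgeR adjusted p = 0.250).

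Cacna1a, the P/Q-type pore known from nerve terminals, was at 2.68, 3.50 and 3.68 CPM in the controls and 2.33, 2.16 and 2.03 in the tumour libraries, which were wholly lower but not called (-0.59 ± 0.24, edgeR adjusted p = 0.118). It stood at 4.71, 3.64 and 4.36 CPM in the trained and 3.59, 2.70 and 3.47 in the tumour trained libraries, again wholly lower and not called (-0.38 ± 0.24, edgeR adjusted p = 1.00). Between tumour trained and trained, 8.05% of all genes lay wholly lower and 7.9% wholly higher.

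The alpha2delta subunits bring the pore to the cell surface, and Cacna2d1 is a form that binds gabapentin. Cacna2d1 was the most abundant of them and was high in the tumour trained group. Its level was 81.3, 117 and 129 CPM in the controls, 186, 77.3 and 173 in the trained, 59.3, 88.0 and 105 in the tumour, and 173, 201 and 183 in the tumour trained libraries. Trained 1 and 3 sat with the tumour trained libraries, and trained 2 below every control. Cacna2d1 was 1.14 ± 0.32 higher on the log2 scale in tumour trained than in tumour (edgeR adjusted p = 0.0483). Tumour against control was -0.37 ± 0.31 (edgeR adjusted p = 0.391), trained against control 0.42 ± 0.31 (edgeR adjusted p = 1) and tumour trained against trained 0.35 ± 0.31 (edgeR adjusted p = 1.00). Without tumour 1 and 2 the difference between tumour trained and tumour was 0.80 ± 0.40 (edgeR adjusted p = 0.378), and with the cardiomyocyte scaling it was -0.03 ± 0.43 (edgeR adjusted p = 0.952).

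Slmap, a membrane protein gene from the list of sodium channel partners, divided the libraries in the same way as Cacna2d1. It stood at 117, 121 and 118 CPM in the controls, 188, 75.5 and 172 in the trained, 111, 116 and 106 in the tumour, and 173, 190 and 186 in the tumour trained libraries. Slmap was singled out after its values were seen, and it was not called between tumour trained and tumour (0.72 ± 0.26, edgeR adjusted p = 0.0932). Dlg1 of the same list divided the libraries likewise, with trained at 105, 59.3 and 95.1 CPM and controls at 78.8, 85.9 and 81.2. The cardiomyocyte gene Pln did too, at 7223, 4274 and 7461 CPM by library size against 5981, 6429 and 5144. The division was therefore not particular to channel genes or their partners.

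Cacna2d2 was at 4.02, 2.34 and 2.73 CPM in the controls, 3.18, 3.30 and 2.98 in the trained, 0.479, 1.11 and 2.03 in the tumour, and 2.75, 2.48 and 2.10 in the tumour trained libraries. The tumour libraries were wholly below the controls (-1.36 ± 0.43, edgeR adjusted p = 0.0674). The tumour trained libraries were wholly below the trained ones (-0.37 ± 0.41, edgeR adjusted p = 1.00). Neither passed the test in edgeR, whereas DESeq2 called Cacna2d2 lower in tumour than in control (-1.42, adjusted p = 0.0222). That difference was -0.57 without tumour 1 and 2 (edgeR adjusted p = 0.589).

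Calcium beta subunits chaperone the pore and shape its opening, and Cacnb2 is the main cardiac form. It stood at 97.8, 80.8 and 75.4 CPM in the controls, 97.6, 80.6 and 102 in the trained, 14.5, 71.9 and 42.0 in the tumour, and 94.2, 115 and 89.5 in the tumour trained libraries. Every tumour library was below every library of the other groups. Tumour 3 was below tumour 2, the reverse of the order of their cardiomyocyte shares. Over the 12 libraries the difference to control was -0.98 ± 0.41 (edgeR adjusted p = 0.118), and that of tumour trained to tumour 1.22 ± 0.41 (edgeR adjusted p = 0.0755). Without tumour 1 and 2 both were called: Cacnb2 was lower in tumour 3 than in control (-1.0001 ± 0.21, edgeR adjusted p = 0.0409) and higher in tumour trained than in tumour 3 (1.23 ± 0.21, edgeR adjusted p = 0.0217). Both values rest on 1 tumour library.

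Relative to the other beta subunits, Cacnb2 made up 84.6% to 86.9% of family counts in the controls. Its share was 44.2% in tumour 1 (95% Wilson interval 40.1% to 48.4%). It was 80.3% (78.0% to 82.3%) in tumour 2, 76.0% (72.4% to 79.2%) in tumour 3 and 86.0% to 90.6% in the tumour trained libraries. In tumour 1 the remainder went to Cacnb4, known from brain, with 26.7% (23.2% to 30.6%), and Cacnb3 with 21.6%. In tumour 3 Cacnb1 held 14.9% (12.2% to 17.9%), against 7.92% to 9.43% in the controls, and Cacnb3 held 7.85% (5.95% to 10.3%), against 4.34% to 5.06%.

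Cacnb4 was at 0.957, 0.487 and 0.946 CPM in the controls and 8.79, 0.905 and 0.738 in the tumour libraries. It was thus high in tumour 1 alone among the tumour libraries, unlike Scn8a, and the difference was not called (2.14 ± 0.85, edgeR adjusted p = 0.108). Cacnb3 was at 4.88, 4.77 and 4.42 CPM in the controls, 5.06, 6.07 and 5.21 in the trained, and 7.12, 8.98 and 4.34 in the tumour libraries. The trained libraries lay wholly above the controls without being called (0.22 ± 0.29, edgeR adjusted p = 1). Cacnb1 was at 8.90, 8.18 and 8.41 CPM in the controls and 2.45, 7.80 and 8.22 in the tumour libraries.

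**Figure D2:**
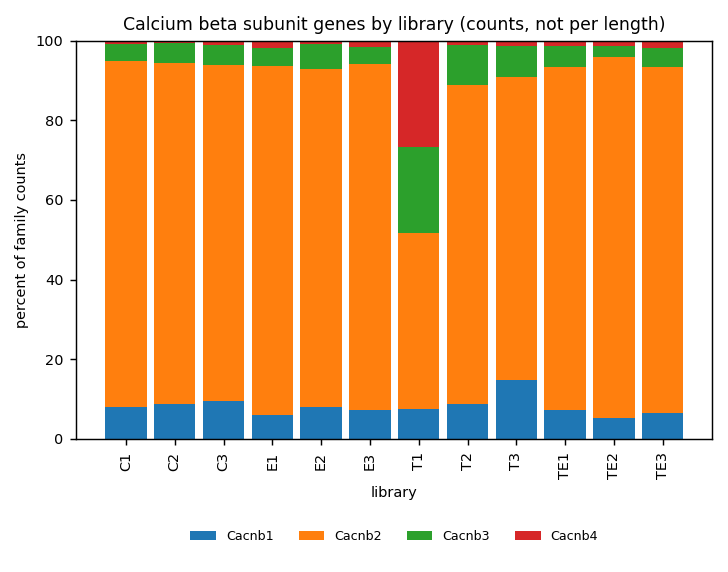
Share of each calcium beta gene in the counts of its family (vertical, percent) by library (horizontal; C control, E trained, T tumour, TE tumour trained). Cacnb2 makes up 44.2% in tumour 1 and 76.0% in tumour 3, against 84.6% to 86.9% in the controls.

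The calcium gamma subunit gene Cacng6 was at 5.27, 4.38 and 4.94 CPM in the controls, 3.53, 3.99 and 3.30 in the trained, and 1.56, 2.37 and 8.86 in the tumour libraries. The trained libraries were wholly below the controls, and the difference was not called (-0.43 ± 0.51, edgeR adjusted p = 1). In tumour 3 it was above every other library, and without tumour 1 and 2 its difference to control was 0.87 ± 0.24 (edgeR adjusted p = 0.124). Cacng7 stood at 6.32, 6.52 and 7.47 CPM in the controls and 2.75, 6.75 and 6.74 in the tumour libraries.

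Hcn2 encodes an HCN channel of heart and brain. It was at 43.9, 44.0 and 44.7 CPM in the controls, 39.6, 60.5 and 46.8 in the trained, 5.38, 17.1 and 34.2 in the tumour, and 44.9, 35.7 and 39.9 in the tumour trained libraries. Every tumour library was below every library of the other 3 groups. The difference was -1.24 ± 0.46 against control (edgeR adjusted p = 0.0938) and 1.10 ± 0.46 for tumour trained against tumour (edgeR adjusted p = 0.128). Neither passed the test.

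Hcn4, the principal HCN gene of the sinoatrial node, was at 4.60, 7.203 and 6.52 CPM in the controls, 5.42, 4.60 and 3.51 in the trained, 0.837, 3.06 and 4.98 in the tumour, and 3.70, 4.10 and 3.79 in the tumour trained libraries. The 3 tumour trained libraries were all below the lowest control, a comparison that was not tested and has no share of all genes here. The tumour difference was -1.06 ± 0.47 (edgeR adjusted p = 0.137) and the tumour trained difference to tumour 0.41 ± 0.48 (edgeR adjusted p = 0.565).

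**Figure D3:**
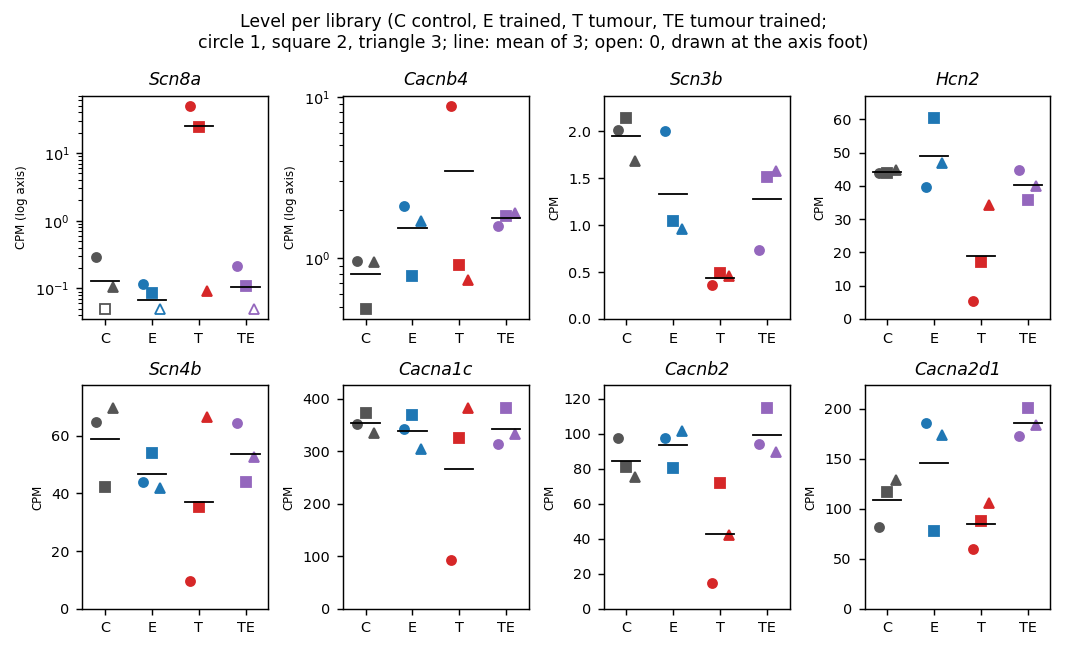
CPM of 8 channel genes (vertical; log axis for Scn8a and Cacnb4, where open symbols are libraries at 0) in each library by group (horizontal), with lines at group means. Scn8a is high in tumour 1 and 2, at 49.95 and 24.4 CPM, whereas Scn3b, Hcn2 and Cacnb2 are lowest in the tumour group.

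The promoters of Hcn2 and Cacna2d1 are shown as examples rich in the GC box, picked for that from the 9 genes wholly higher in tumour trained than in tumour. Among the others of the 9, there was 1 match for Cacna2d2, 1 for Scn7a and 0 for Scn10a. Cacnb2 held 1 and 0 in its 2 windows. Cacna1d held 0 and 5, so its second window held more than that of Hcn2. Cacna1a and Scn3b, also of the 9, had no window. A link between the motif and the difference was not tested. Each line is the 250 bases before the RefSeq start in GRCm38.p6, plus strand, 5′ to 3′, at chr10:79716384-79716633 for Hcn2 and chr5:15934441-15934690 for Cacna2d1. Capitals mark GGGCGG on either strand, so its reverse complement appears too.
Hcn2: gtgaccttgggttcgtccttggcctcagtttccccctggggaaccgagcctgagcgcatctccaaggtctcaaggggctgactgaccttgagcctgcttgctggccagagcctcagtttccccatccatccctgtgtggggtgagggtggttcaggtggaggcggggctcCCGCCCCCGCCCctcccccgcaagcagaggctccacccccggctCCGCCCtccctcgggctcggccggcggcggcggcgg
Cacna2d1: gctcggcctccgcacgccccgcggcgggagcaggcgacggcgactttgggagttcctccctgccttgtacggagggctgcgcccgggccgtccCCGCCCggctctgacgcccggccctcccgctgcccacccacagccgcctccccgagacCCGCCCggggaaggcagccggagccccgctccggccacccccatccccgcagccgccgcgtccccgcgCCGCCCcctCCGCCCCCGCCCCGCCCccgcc
The Hcn2 window holds 3 matches and that of Cacna2d1 holds 6, some of which adjoin or overlap. A match describes the letters and not a bound site.

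Set against the counts of the 16 cardiomyocyte genes, Cacna1c and Hcn2 ordered the groups differently. Per 10000 cardiomyocyte counts, Cacna1c had 25.1, 27.6 and 23.0 in the controls and 35.5, 45.4 and 28.8 in the tumour libraries, each above every control.

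Hcn2 was lower on this scale as well. It had 3.12, 3.27 and 3.07 counts per 10000 in the controls and 2.07, 2.39 and 2.57 in the tumour libraries, which did not overlap, and 3.41, 2.74 and 2.95 in the tumour trained libraries. The edgeR fit scaled to the cardiomyocyte genes gave Hcn2 a difference of -0.43 ± 0.29 to control (adjusted p = 0.189), which was not called. Cacna1s had 1.99, 2.02 and 2.02 counts per 10000 in the controls and 1.82, 1.66 and 1.86 in the tumour libraries, again without overlap and without a call (-0.18 ± 0.27, edgeR adjusted p = 0.552). Cacnb2 had 6.95, 6.00 and 5.18 in the controls and 5.59, 10.0 and 3.16 in the tumour libraries, with tumour 3 the lowest of the 12. On this scale 6 genes were called between tumour and control, among them Cacna1c, Cacnb3, Cacnb4, Scn3a and Scn7a. All 6 were higher, where the median of all genes was 1.58 higher too. The share of all genes called on this scale is not given here.

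**Figure D4:**
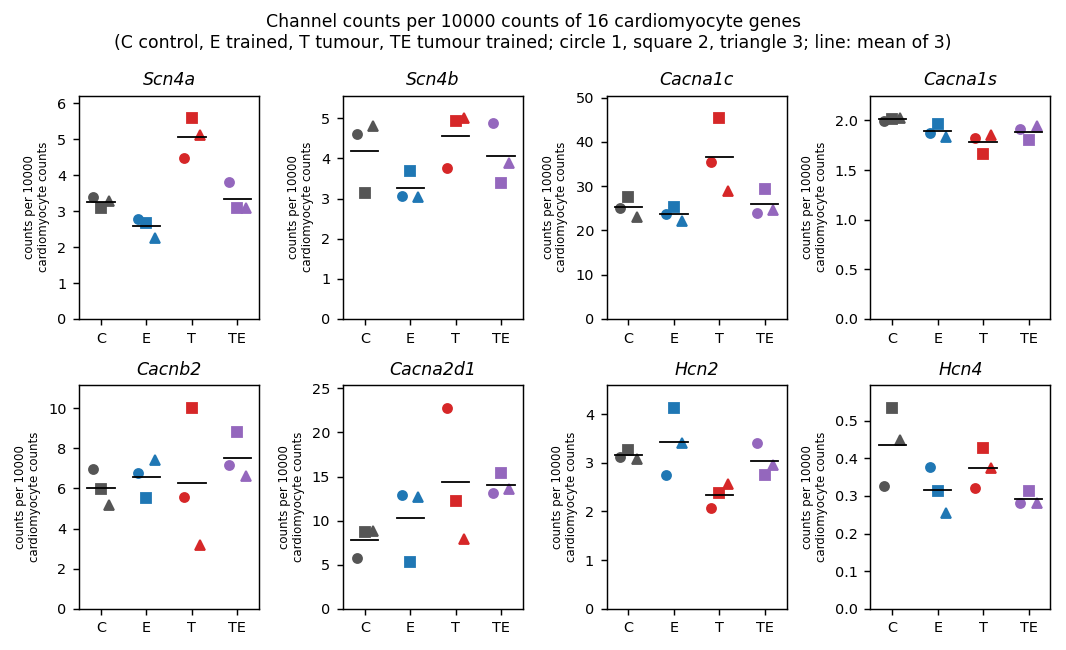
Counts of 8 channel genes per 10000 counts of 16 cardiomyocyte genes (vertical) in each library by group (horizontal), with lines at group means. Hcn2 lies at 2.07 to 2.57 in the tumour libraries, below the controls at 3.07 to 3.27, whereas Cacna1c reaches 45.4 in tumour 2 and Cacnb2 is at 3.16 in tumour 3.

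The other 9 channel genes that met the count rule did not pass the filter on low counts. Of these, Scn8a was high in only 2 libraries. Cacna1b, Cacna1e, Cacna1i, Cacna2d3, Cacng1, Scn2b and Hcn3 were below 1.1 CPM in every library, and Scn2a reached 1.496 CPM in tumour 1 with at most 0.647 elsewhere. Scn3a, which was tested, was at 0.862, 1.46 and 1.58 CPM in the controls and 1.20, 1.04 and 1.85 in the tumour libraries. The 7 genes below the count rule were Cacna1f, Cacna2d4, Cacng4, Cacng5, Cacng8, Scn11a and Scn1a.

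Among genes that act on these channels, the number called differed between edgeR and DESeq2. Of 13 tested sodium channel partners, edgeR called 0 between tumour and control (4 at p under 0.05 before adjustment, 2 called by DESeq2). For tumour trained against tumour, 6 had p under 0.05 before adjustment, and DESeq2 called 4 higher and 1 lower. In edgeR 1 was called, lower in tumour trained: Nedd4l, a ubiquitin ligase that removes channels from the membrane (-0.91 ± 0.26, edgeR adjusted p = 0.0487). Its difference without tumour 1 and 2 was -0.21 ± 0.16 and not called (edgeR adjusted p = 0.554). Its tumour libraries stood at 114, 71.2 and 47.2 CPM, against 37.4 to 43.7 in the controls. Of 12 tested calcium channel partners, Cabp1, a calcium-binding modulator of the channels, was the 1 that edgeR called lower in tumour than in control (-1.38 ± 0.35, edgeR adjusted p = 0.0455). It stood at -0.94 ± 0.40 without tumour 1 and 2 and was not called (edgeR adjusted p = 0.339). In that comparison 7 of the 12 had p under 0.05 before adjustment, and DESeq2 called 1 higher and 3 lower. For tumour trained against tumour, edgeR called 0 of the 12 (2 at p under 0.05 before adjustment, 1 called by DESeq2). Cabp1 stood at 2.30, 3.31 and 3.58 CPM in the controls and 0.658, 1.32 and 1.57 in the tumour libraries. Of 5 tested HCN and pacemaker partners, edgeR called 0 in either comparison. Before adjustment, 0 of them had p under 0.05 between tumour and control and 1 between tumour trained and tumour, which DESeq2 called. The share of all genes at p under 0.05 before adjustment, or called by DESeq2, is not given here. These counts therefore show nothing particular to the partners.

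Of 4 tested conduction and atrial genes, Nr2f2, a transcription factor of atrial muscle and veins, was higher in tumour than in control (0.93 ± 0.18, edgeR adjusted p = 0.0390), and without tumour 1 and 2 by 1.07 ± 0.18 (edgeR adjusted p = 0.0175). It stood at 9.96, 7.98 and 9.88 CPM in the controls and 19.0, 14.6 and 19.3 in the tumour libraries. Nr2f2 was at 14.8, 14.5 and 16.9 CPM in the trained and 14.8, 12.8 and 12.8 in the tumour trained libraries. Every library outside the control group thus lay above every control, and the difference was not particular to the tumour group. The median tumour difference was -0.51 for the sodium partners, -0.31 for the calcium partners, -0.35 for the HCN partners and 0.10 for the conduction and atrial genes, beside 0.11 for all genes. The atrial genes Sln, Bmp10 and Myl7 were at or near 0 in every library, with at most 0.538 CPM.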

How the data were processed

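Heart RNA of 12 libraries was measured by RNA sequencing. The authors deposited 1 table of estimated counts per gene for the whole series, not normalized. HISAT2 2.2.1 and featureCounts were used, per the submitters' processing notes, which name both GRCm39 and mm10. Which build, annotation and strand setting lie behind the table is not given in the sources used here. Reads of overlapping genes on opposite strands therefore cannot be told apart.

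Between 7.09% and 8.92% of values in a library were not whole, and counts were rounded. Groups and replicate numbers came from the sample titles. The test was the quasi-likelihood test of edgeR 4.0.16 (R 4.3.3), fitted once to all 12 libraries (1 mean per group, 8 residual degrees of freedom, TMM scaling, default filter by group). An SE is the log2 difference over the root of its F statistic. Exon lengths came from GENCODE M21 and matched all 34 genes. Promoter windows came from RefSeq (GRCm38.p6) and matched 24. The floor of 3 counts, or 0.225 to 0.339 CPM, covers counting error only. Alternatives were DESeq2 1.42.0, its size factors, library size alone, scaling to 16 cardiomyocyte genes, no filter or a stricter one (1 CPM in 6 libraries), the replicate number as a block, only the 2 groups compared, leaving out tumour 1 and 2, and leaving out each library. The fit was tested on simulated counts.

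Genes named are a panel (Scn4b, Scn7a, Cacna1c, Cacna1d, Cacna1g, Cacna1h, Cacna2d1, Cacnb2, Hcn2 and Hcn4), every gene called, and per comparison up to 3 by size of difference among those without overlap. Scn8a, Cacnb1, Cacnb4, Cacng7, Cacna1s, Scn2a and Scn3a were described as other members of the families. Counts cover all members, and the values of some single members are left out. Members and lists were chosen with earlier results of these data known.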

Additional observations from a re-analysis of the deposited data

Results flagged for a closer look

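Scn1a, a sodium channel gene of the nervous system that did not meet the count rule and entered no comparison, had 112 counts in tumour 1 and 18 in tumour 2. It had 0 counts in tumour 3 and in the other 9 libraries, where the floor is 3 counts. These are the 2 libraries in which Scn8a was high.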

How the results depend on the processing

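Between tumour and control, where 2 channel genes were called, the number was 3 with DESeq2 (with Cacna2d2), 3 with no filter (with Scn8a), 6 with the cardiomyocyte scaling, 1 with a stricter filter, 0 with only the 2 groups compared and 1 without tumour 1 and 2 (Cacnb2). Leaving out 1 library gave 0 to 12, with 12 without tumour 3 and 0 without any other library. Between tumour trained and tumour, where 3 were called, the number was 5 with DESeq2 (with Cacnb2 and Scn10a), 3 with no filter, 2 with a stricter filter, 2 with library size alone, 0 with only the 2 groups compared and 1 without tumour 1 and 2. Leaving out 1 library gave 0 to 13, with 13 without tumour 3, 3 without trained 2 and 0 otherwise. For the interaction, with 0 called, DESeq2 gave 1 and leaving out 1 library 0 to 10, with 10 without tumour 3. Between trained and control, and between tumour trained and trained, edgeR and DESeq2 called 0 channel genes under every alternative run. The cause of these differences was not tested. The share of all genes called is given for the main fit and without tumour 1 and 2, but not for the other alternatives. With the replicate number as a block, 0 channel genes were called between tumour and control and 0 between tumour trained and tumour. Same-numbered libraries did not deviate together, with correlations from -0.27 to 0.05, so the numbers give no pairing.

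The cardiomyocyte scaling moved the median of all genes from 0.11 to 1.58 between tumour and control and from -0.04 to -1.43 between tumour trained and tumour. The sign of the log2 difference between tumour and control then turned, among the genes reported, for Scn4b (0.13), Scn7a (1.24), Cacna1c (0.54), Cacna1d (1.07), Cacna1h (0.40), Cacna2d1 (0.88) and Cacnb2 (0.051). Between tumour trained and tumour it turned for Scn4b (-0.17), Scn7a (-0.46), Cacna1c (-0.50), Cacna1d (-0.93), Cacna1g (-0.17), Cacna1h (-0.31), Cacna2d1 (-0.030) and Hcn4 (-0.37). Without tumour 1 and 2 it turned between tumour and control for Scn4b (0.18), Scn7a (0.30) and Cacna1c (0.13), and between tumour trained and tumour for Scn4b (-0.33), Cacna1c (-0.17) and Hcn4 (-0.38). Library size alone gave Scn7a 0.15 between tumour and control and moved the median of all genes to 0.32. Leaving out 1 library gave Scn7a -0.26 to 0.15 between tumour and control. Between tumour trained and tumour it gave Cacna1c -0.0507 to 0.74 and Hcn4 -0.056 to 1.03. Of these genes, Cacna2d1 between tumour trained and tumour was the 1 called over all 12 libraries.

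Depth limits Scn3b, which rests on 5 to 7 counts in each tumour library, and the untested genes other than Scn8a. Other tested genes were low as well. Cacna2d2 had 8, 16 and 22 counts and Scn10a 8, 17 and 30 in the tumour libraries, and Cacnb4 10, 5 and 9 in the controls.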
